A study of Mus musculus with 7 samples.

Results

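Aminoacyl-tRNA synthetases are the enzymes that load each transfer RNA with its amino acid. Their transcripts are described here in 3T3-L1, a mouse pre-adipocyte cell line that becomes fat-storing adipocytes under a hormone mixture. The genes were taken from a list of 35, 19 of the cytosolic set (names ending in 1, with Farsa, Farsb and Tars3) and 16 of the mitochondrial set (names ending in 2). A gene counted as measured when a row of the array table, called a transcript cluster, carried its symbol and no other. That held for 33 of the 35, 17 cytosolic and all 16 mitochondrial, among 18820 genes measured in the same way. Aars1 and Farsb share their rows with another gene and are given apart. The array annotation uses older symbols without the final 1 for most cytosolic genes and Tarsl2 for Tars3. Mars1 is not in the list and is given in the closing section.

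All cells were differentiated for 7 days with isobutylmethylxanthine, dexamethasone and human insulin for the first 2 days and with human insulin after that, per the labels' protocols. During the whole period they received either DMSO, the solvent (4 arrays), or an SCD inhibitor at 1 µM (3 arrays). SCD, stearoyl-CoA desaturase, makes monounsaturated fatty acids. Which compound was bought is not given by the labels. The labels call the material pre-adipocyte and the series design calls it adipocytes; it is a single cell line throughout.

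Cells carry separate synthetases for the cytosol, where most proteins are made, and for mitochondria, which translate a few of their own transcripts. The mitochondrial enzymes are encoded in the nucleus and imported. Several cytosolic synthetases are bound together in the multi-synthetase complex, and Gars1 and Kars1 each give rise to both a cytosolic and a mitochondrial form. When amino acids are short or protein folding is disturbed, kinases phosphorylate the initiation factor eIF2 and the transcription factor ATF4 is made. ATF4 is known to raise genes of amino acid synthesis and uptake and many cytosolic synthetases, through a composite element shared with C/EBP factors.

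The 7 arrays gave log2 levels between 2.23 and 13.25 over all rows, with array medians of 4.882 to 4.944. Over all genes, the correlation between 2 arrays was 0.9990 to 0.9995 within a group and 0.9968 to 0.9975 across groups. The number of arrays limits the precision. Since nothing in the labels tells separate cultures from repeats of 1 culture, each p-value reflects the spread among these 7 samples alone, and that spread may be technical. In bulk RNA, fewer cells of a type and less RNA per cell cannot be told apart. All 8 adipocyte markers, among them Adipoq, Fabp4 and Plin1, were measured, and their mean log2 level was 11.98 to 12.02 in DMSO and 11.96 to 12.03 with the inhibitor. None was called in limma, and 2 were higher at an unadjusted p under 0.05, as were 2052 of all 18820 genes. Of 8 pre-adipocyte or fibroblast markers 5 rose with the inhibitor (Pdgfra, Pdgfrb, Col3a1, Col1a1 and Dlk1) and none fell. Over all genes 3.62% rose and 4.37% fell. The mean level of the 8 was 9.06 to 9.17 on the DMSO arrays and 9.45 to 9.53 on the inhibitor arrays. Of the macrophage (6), endothelial (4) and skeletal muscle (4) markers none was called in limma and none had an unadjusted p under 0.05. Of 4 osteoblast or chondrocyte markers 1 rose, Sox9 (log2 0.32), beside the same 3.62% over all genes. The part of the pre-adipocyte markers in the results below was not tested.

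With the inhibitor, transcripts of cytosolic synthetases fell more often than they rose, and none of the mitochondrial synthetases was called lower. Of the 17 cytosolic genes 6 were lower (Wars1, Iars1, Cars1, Gars1, Eprs1 and Lars1), 1 was higher (Farsa) and 10 did not pass. Of the 16 mitochondrial genes 0 were lower, 2 were higher (Cars2 and Sars2) and 14 did not pass. A gene counts as lower or higher, or called, when its adjusted p is under 0.05 in limma, with Benjamini-Hochberg adjustment over all 18820 genes. Over all genes 4.37% were lower and 3.62% higher, against 35.3% lower and 5.88% higher of the cytosolic genes. Dim genes were called less often: with the dimmest 50% removed, 1037 of the 9410 genes left were lower and 952 higher. All measured synthetases stayed in that fit, where 8 cytosolic genes were lower and 1 higher, and 0 mitochondrial genes were lower and 2 higher. The share of higher mitochondrial genes, 12.5%, rests on 2 genes. In either direction 8.00% of all genes were called, 823 lower and 682 higher, while centring each array on its median gave 1030 lower and 1296 higher. With that centring 7 cytosolic genes were lower and 1 higher, and 0 mitochondrial genes were lower and 3 higher. The groups did not overlap, with the inhibitor lower, in 9.02% of all genes and, with it higher, in 8.30%, against 7 and 1 of the 17 cytosolic and 0 and 3 of the 16 mitochondrial genes. Among the 9410 brighter genes, 1497 had groups apart with the inhibitor lower and 1405 with it higher. At an unadjusted p under 0.05 in limma, 3 of the 16 mitochondrial genes were lower and 3 higher, and 8 of the 17 cytosolic genes were lower and 1 higher. Over all 18820 genes 2076 were lower and 2052 higher by that measure. The changes were small: the median log2 difference, inhibitor minus DMSO, was -0.099 over the cytosolic genes, -0.032 over the mitochondrial ones and -0.004 over all genes. The mitochondrial median was -0.054 without SCD inhibitor 2, -0.017 without SCD inhibitor 1 and -0.009 without SCD inhibitor 3. Of the cytosolic genes 15 (88.2%) had a difference below 0 and of the mitochondrial genes 10 (62.5%), while 52.7% of all genes did. Among the lists described further below, the share was 76% of 25 cytosolic initiation and elongation factors. It was 75% of 12 mitochondrial translation genes and 83.3% of 12 other genes of tRNA charging, editing and recycling.

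The number of cytosolic genes called lower changed when arrays were left out, as did the number over all genes. It was 3 without DMSO 4 and 3 without both arrays numbered 1, in which case 0 cytosolic and 1 mitochondrial genes were higher. Over all 18820 genes, 823 were lower with all arrays, 543 without DMSO 4 and 374 without both arrays numbered 1. Wars1, Iars1, Eprs1 and Sars2 kept their call in all 18 alternatives tried.

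**Figure D1:**
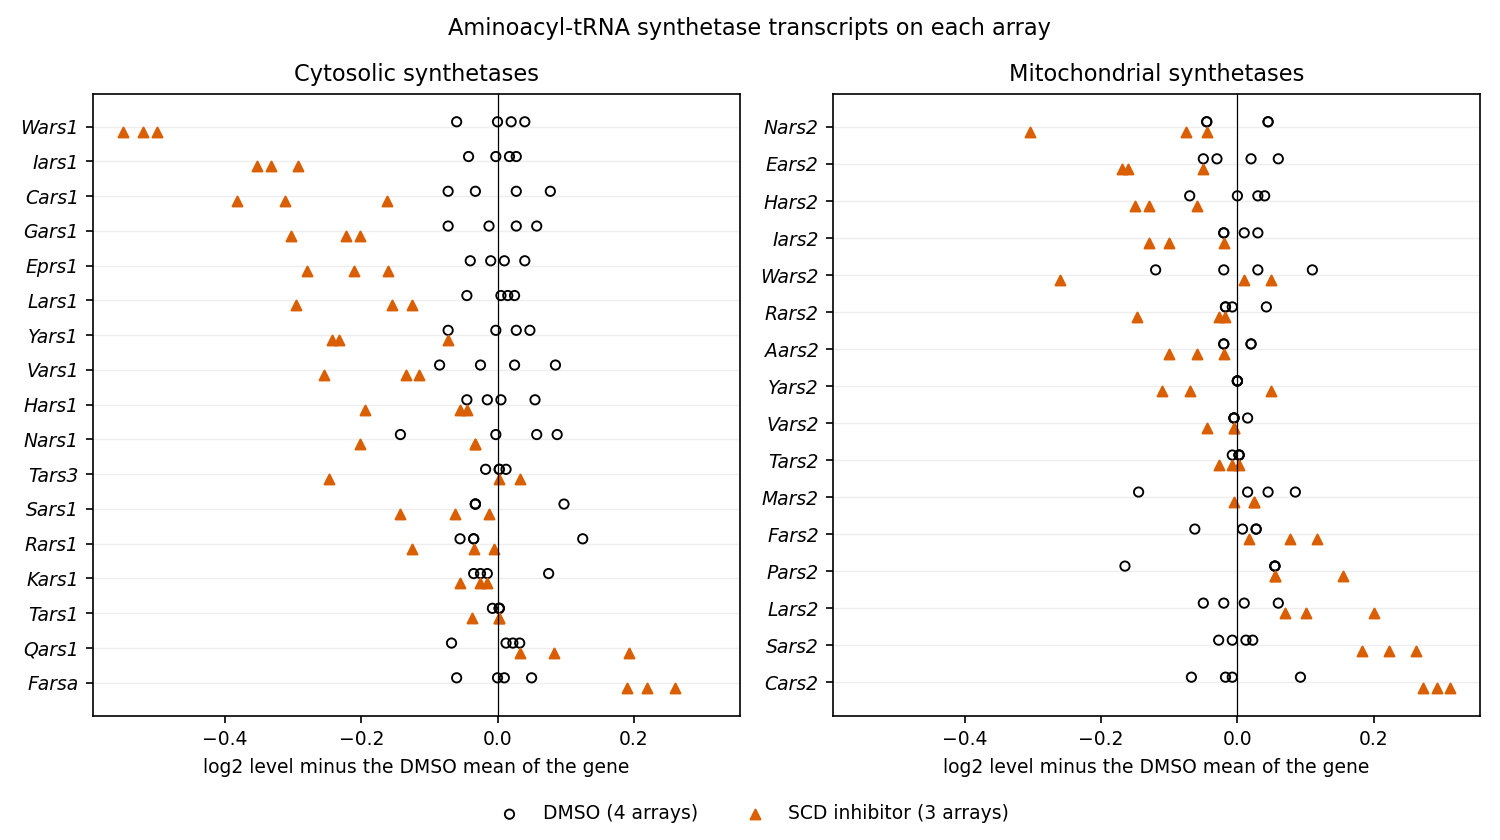
Log2 level of each of the 33 measured synthetase genes on each array, minus that gene's mean over the 4 DMSO arrays (x axis, log2 units), for cytosolic (left) and mitochondrial (right) genes. Open circles are the 4 DMSO arrays and triangles the 3 SCD inhibitor arrays; the inhibitor arrays lie wholly below the DMSO arrays for 7 cytosolic and 0 mitochondrial genes, and wholly above them for 1 cytosolic and 3 mitochondrial genes.

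Wars1, the tryptophan enzyme of the cytosol (transcript cluster 10402585), had the largest decrease of the list. Its log2 level was 10.06, 10.04, 9.96 and 10.02 on DMSO arrays 1 to 4 and 9.52, 9.50 and 9.47 on inhibitor arrays 1 to 3. The groups were wide apart, and the arrays within each lay close together. The group means were 10.02 ± 0.046 (SD, n = 4) and 9.50 ± 0.024 (SD, n = 3), a 1.44-fold decrease (log2 -0.52, SE 0.029, adjusted p = 0.000172 in limma). By its p-value Wars1 ranked 75 of 18820 genes.

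Iars1, the isoleucine enzyme and a member of the multi-synthetase complex (10345025), came next. It read 10.29, 10.30, 10.23 and 10.27 in DMSO and 9.98, 9.94 and 9.92 with the inhibitor, with no overlap. The difference was -0.32 (SE 0.027, adjusted p = 0.000856 in limma), a 1.25-fold decrease. Iars1 has a further transcript cluster with its symbol alone (10405094), which went from 9.85, 9.98, 9.88 and 9.82 to 9.48, 9.68 and 9.64, so that both rows were lower on every inhibitor array.

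Eprs1, the double enzyme for glutamate and proline in the same complex (10352514), read 10.21, 10.29, 10.26 and 10.24 in DMSO and 9.97, 10.04 and 10.09 with the inhibitor. All inhibitor arrays lay below all DMSO arrays, and the difference was -0.22 (SE 0.034, adjusted p = 0.0115 in limma). Gars1, the glycine enzyme that also serves mitochondria (10538420), read 10.70, 10.77, 10.64 and 10.74 against 10.41, 10.51 and 10.49. Its difference of -0.24 (SE 0.040, adjusted p = 0.0134 in limma) lost its call without DMSO 4 (adjusted p = 0.0507 in limma), without SCD inhibitor 3 (0.0511) and without both arrays numbered 1 (0.102).

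Cars1, the cysteine enzyme (10569458), read 8.39, 8.44, 8.29 and 8.33 in DMSO and 8.05, 7.98 and 8.20 with the inhibitor. The third inhibitor array lay closest to the DMSO arrays, and the groups did not overlap. The difference was -0.29 (SE 0.058, adjusted p = 0.0313 in limma). Of the fits that left out a single array, Cars1 kept its call only without SCD inhibitor 3 (adjusted p = 0.0223 in limma). Its adjusted p in limma was 0.0959, 0.0838, 0.0572 and 0.0804 with DMSO 1, 2, 3 and 4 left out, 0.0996 and 0.0949 with SCD inhibitor 1 and 2 left out, and 0.218 with both arrays numbered 1 left out.

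Lars1, the leucine enzyme of the complex (10458607), read 9.50, 9.48, 9.43 and 9.49 in DMSO and 9.18, 9.35 and 9.32 with the inhibitor. SCD inhibitor 1 was the lowest of the 7 arrays by a clear margin. The difference of -0.19 (SE 0.044, adjusted p = 0.0481 in limma) lay at the edge of the threshold. It kept its call without SCD inhibitor 1 (adjusted p = 0.0396 in limma) and lost it without any of the other arrays, at 0.131, 0.124, 0.0864 and 0.135 without DMSO 1, 2, 3 and 4 and at 0.057 and 0.0968 without SCD inhibitor 2 and 3. Without both arrays numbered 1 it was 0.0818, and in the fit of every row of the array it was 0.0648.

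Farsa, the catalytic subunit of the cytosolic phenylalanine enzyme (10573434), was the only cytosolic gene that rose. It read 9.17, 9.13, 9.06 and 9.12 in DMSO and 9.34, 9.31 and 9.38 with the inhibitor, with all inhibitor arrays above all DMSO arrays. The difference was 0.22 (SE 0.031, adjusted p = 0.00729 in limma), and with both arrays numbered 1 left out the adjusted p was 0.0517 in limma. Farsb encodes the other subunit of the same enzyme, and its row is shared with Sgpp2, so the value cannot be assigned to either gene. That row read 9.447, 9.463, 9.359 and 9.352 in DMSO and 9.143, 9.252 and 9.275 with the inhibitor. It was lower on every inhibitor array, by -0.18 on the log2 scale (SE 0.044), and missed the threshold in the fit of every row (adjusted p = 0.0783 in limma).

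The other 10 cytosolic genes did not pass, 9 with a difference below 0 and 1 above. Yars1, the tyrosine enzyme, read 9.92, 9.95, 9.85 and 9.97 in DMSO and 9.68, 9.69 and 9.85 with the inhibitor. Its groups touched at the third inhibitor array (log2 -0.18, adjusted p = 0.0903 in limma), and without SCD inhibitor 3 it passed (adjusted p = 0.0272 in limma), as it did with the arrays centred on their median (0.0393) and with the dimmest 50% of genes removed (0.0415). Vars1, the valine enzyme, read 8.78, 8.89, 8.72 and 8.83 against 8.69, 8.67 and 8.55, which were apart by a small gap. The difference of -0.17 had an adjusted p of 0.105 in limma. It passed with the dimmest 50% of genes removed (adjusted p = 0.0488 in limma).

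Qars1, the glutamine enzyme of the complex, was the cytosolic gene above 0 that did not pass. It read 9.63, 9.62, 9.61 and 9.53 in DMSO and 9.63, 9.68 and 9.79 with the inhibitor, with a shared value on the first arrays (log2 0.10, 95% interval -0.00 to 0.20). Hars1 (histidine) and Nars1 (asparagine) had differences of -0.10 and -0.09. Tars3, a second threonine enzyme, Sars1 (serine), Rars1 (arginine) and Kars1 (lysine) had differences between -0.07 and -0.03. Their 95% intervals spanned 0, the widest from -0.25 to 0.07 for Nars1, so decreases of the size seen for Eprs1 are inside some of them.

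Tars1, the main threonine enzyme, had a difference of -0.01, with deposited values of 9.25 on 5 of the 7 arrays, 9.24 on DMSO 1 and 9.21 on SCD inhibitor 1. Aars1, the alanine enzyme, shares its row with Exosc6, and that row held 10.045 on 6 of the 7 arrays and 10.039 on SCD inhibitor 2. Among the 33 measured genes 5 had the same deposited value on 4 or more arrays, namely Tars1, Tars2, Vars2, Yars2 and Pars2. Over all genes 30.7% did, and of genes with a mean level above 6 it was 14.1%. How the deposited values came to repeat was not tested. The DMSO SD was small for Yars2 (0.000), Tars1 (0.003), Tars2 (0.006) and Vars2 (0.014), where it lies in the repeated values as deposited. It was 0.113 for Pars2.

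**Figure D2:**
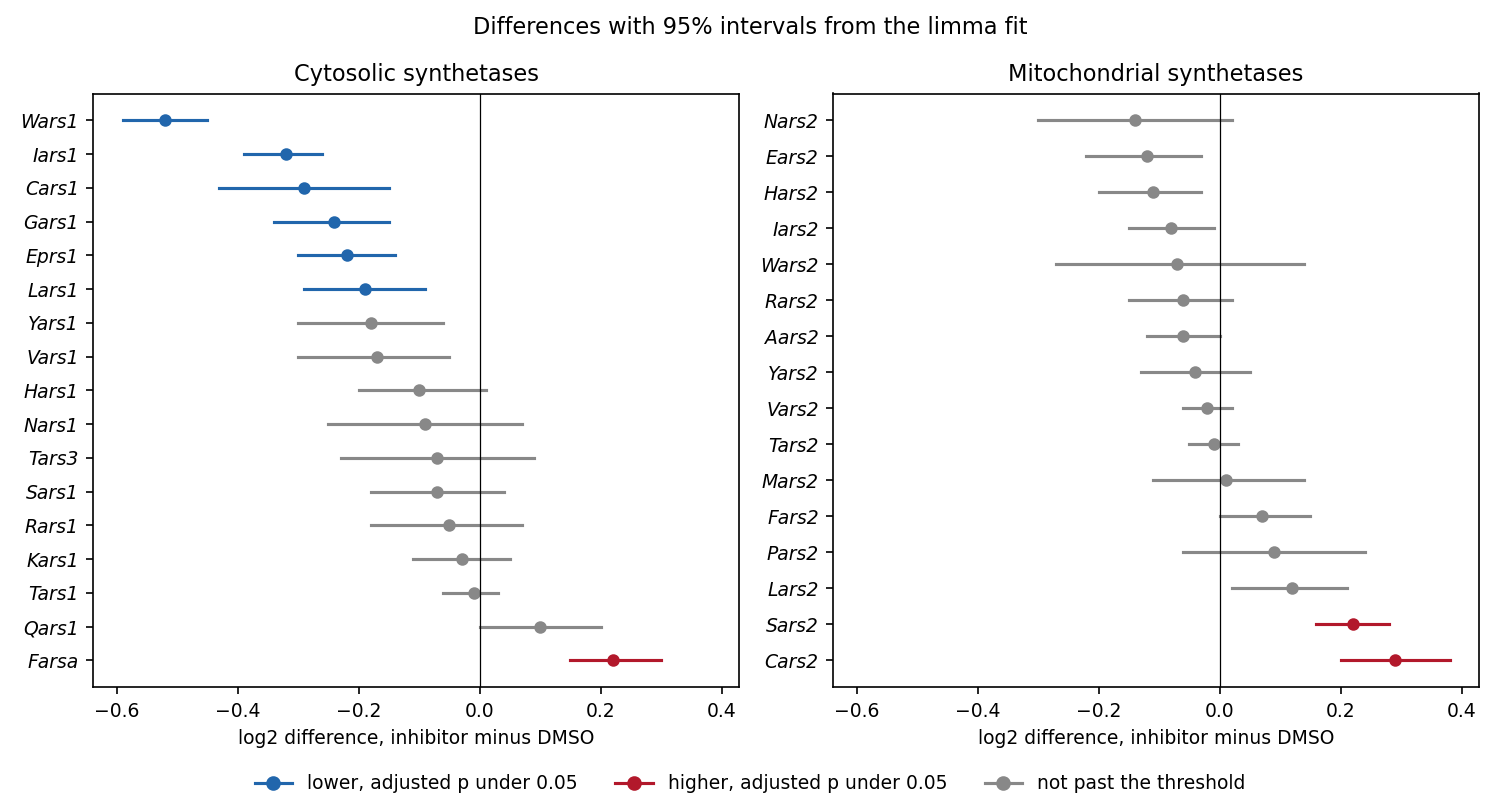
Log2 difference, inhibitor minus DMSO (x axis), of each cytosolic (left) and mitochondrial (right) synthetase gene, with points for the estimate and lines for its 95% interval from limma. Colour marks the 6 lower and 3 higher genes past an adjusted p of 0.05; the differences run from -0.52 for Wars1 to 0.29 for Cars2.

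Promoter sequences show where the composite element bound by ATF and C/EBP factors occurs among these genes. The RefSeq promoter table (GRCm38.p6, 250 bases before to 50 after the start) held 26 of the 35 genes. It held none for Wars1, Cars1, Lars1, Vars1, Hars1, Nars1, Rars1, Hars2 and Pars2. A gene counted as holding a motif when any of its promoters did, while shares over the table are of single promoters, an unlike unit. The letters TGATGNAA, or TTNCATCA for the other strand, occurred for 5 of 12 cytosolic and 0 of 14 mitochondrial genes, against 3.97% of all 32851 promoters. For each of these genes a stretch of 30 bases around 1 match is printed 5′ to 3′ on the gene's strand, with the match in capitals, because Iars1 and Gars1 are among the genes that fell and Tars1, Yars1 and Aars1 are not.
Iars1, first matching base at position 8 after the start, chr13:49682126-49682155 (+): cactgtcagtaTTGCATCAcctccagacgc
Gars1, 30 bases before the start, chr6:55037960-55037989 (+): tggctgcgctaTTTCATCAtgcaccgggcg
Yars1, at position 4 after the start, chr4:129189895-129189924 (+): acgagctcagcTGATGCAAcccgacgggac
Tars1, 15 bases before the start, chr15:11399655-11399684 (-): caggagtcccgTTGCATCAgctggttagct
Aars1, at position 10 after the start, chr8:111033840-111033869 (+): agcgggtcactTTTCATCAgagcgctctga

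Of the 5 genes with these letters, Iars1 (log2 -0.32) and Gars1 (-0.24) fell, Yars1 (-0.18) and Tars1 (-0.01) did not pass, and Aars1 has no row of its own. Eprs1, which fell, and Farsa, which rose, had promoters in the table without these letters in the window. A match is a description of the letters and says nothing of binding.

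The letters CCGGAAG, bound by ETS factors and searched on both strands, occurred for 8 of the 26 genes, 4 cytosolic and 4 mitochondrial, against 8.86% of single promoters. They are shown for the 3 genes that rose, each of which held them before its start, as read on the opposite strand.
Farsa, 22 bases before the start, chr8:84856953-84856981 (+): cgctatcgcgaCTTCCGGttccagttccg
Cars2, 18 bases before the start, chr8:11550772-11550800 (-): gagtgtagcctCTTCCGGgagtgggcgga
Sars2, 154 bases before the start, chr7:28741803-28741831 (+): acctccagcccCTTCCGGggttcctcctt

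The other 5 genes with the ETS letters were Gars1, which fell, and Kars1, Sars1, Mars2 and Rars2, which did not pass. The E-box letters CACGTG, the same on both strands, occurred for 5 genes (Aars1, Farsb, Iars1, Tars1 and Ears2), against 7.15% of single promoters. GCATGCGC is a part of the NRF1 palindrome, with GCGCATGC on the other strand. It occurred for 3 genes, all mitochondrial (Rars2, Vars2 and Wars2), against 2.71% of single promoters. No match of a motif overlapped a match of another.

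Cars2, the cysteine enzyme of mitochondria (10577030), had the largest increase. It read 7.49, 7.44, 7.50 and 7.60 in DMSO and 7.78, 7.82 and 7.80 with the inhibitor. The inhibitor arrays lay close together and above all DMSO arrays. The difference was 0.29 (SE 0.038, adjusted p = 0.00539 in limma), a 1.23-fold increase, and with both arrays numbered 1 left out the adjusted p was 0.075 in limma.

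Sars2, the serine enzyme of mitochondria (10551554), read 7.48, 7.46, 7.51 and 7.50 in DMSO and 7.67, 7.71 and 7.75 with the inhibitor, again without overlap. It rose 1.17-fold (log2 0.22, SE 0.026, adjusted p = 0.00394 in limma). Lars2, the leucine enzyme, read 7.70, 7.73, 7.67 and 7.78 against 7.79, 7.92 and 7.82. Its groups were apart by a narrow gap, and the difference of 0.12 missed the threshold (adjusted p = 0.147 in limma). It passed after a further quantile normalization (adjusted p = 0.0356 in limma) and with the arrays centred (0.0476).

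At the lower end of the mitochondrial set, Nars2 (asparagine) had a difference of -0.14 with an interval from -0.30 to 0.02. Ears2 (glutamate, -0.12), Hars2 (histidine, -0.11) and Iars2 (isoleucine, -0.08) had unadjusted p-values under 0.05 and adjusted p-values of 0.123, 0.111 and 0.168 in limma. In all of these the groups overlapped. Hars2 and Hars1 are next to each other in the RefSeq gene order, and their differences were alike in size, -0.11 and -0.10.

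Wars2 (tryptophan), Rars2 (arginine), Aars2 (alanine), Yars2 (tyrosine), Vars2 (valine), Tars2 (threonine) and Mars2 (methionine) lay between -0.07 and 0.01. Wars2 had the widest interval of these, from -0.27 to 0.14, and SCD inhibitor 3, at 7.98, was its lowest array. Fars2 (phenylalanine, 0.07) and Pars2 (proline, 0.09) lay above 0, and neither passed.

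The cytosolic and the mitochondrial enzyme for the same amino acid often differed in direction or size. Their log ratio within an array is not changed by a constant shift of the whole array. The cytosolic genes were brighter on average than the mitochondrial ones, so normalization that depends on level could still affect the ratio, which was not tested. For 14 pairs, cytosolic over mitochondrial, the ratio was lower with the inhibitor in 9 and higher in 4, counted after rounding. In 1, the threonine pair, the shift rounded to -0.00. In 8 pairs the ratio was apart between the groups, 7 of them lower and 1 higher with the inhibitor. The share among other gene pairs was not computed, and the 17.3% of single genes with groups apart is not a like measure. Of the 8 pairs, all but the valine pair hold a gene called on its own, so their ratios are not separate from those calls. Eprs1 enters with both Ears2 and Pars2. With 4 arrays against 3 the smallest two-sided p of an exact permutation test is 0.0571, so no pair could pass 0.05.

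The cysteine pair moved furthest: Cars1 fell and Cars2 rose, and the log2 ratio went from 0.73 to 1.00 in DMSO to 0.17 to 0.40, a shift of -0.58 (SE 0.089, exact permutation p = 0.0571, two-sided). The tryptophan pair shifted by -0.46 (SE 0.088), with Wars1 lower and Wars2 not past the threshold. The leucine pair (-0.31), Eprs1 over Pars2 (-0.31), the serine pair (-0.29), the isoleucine pair (-0.24) and the valine pair (-0.15) were apart as well, each at the smallest exact p of 0.0571. The phenylalanine pair, Farsa over Fars2, was the 1 pair apart in the other direction (0.15, SE 0.044).

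In the other 6 pairs the ratios overlapped. The histidine pair (0.01, SE 0.052), the arginine pair (0.01, SE 0.030) and the threonine pair (-0.00, SE 0.007) had the smallest shifts. The tyrosine pair (-0.14), Eprs1 over Ears2 (-0.09) and the asparagine pair (0.05, SE 0.128) had exact permutation p-values of 0.171, 0.229 and 0.629. A ratio shows unequal change of 2 transcripts and does not say which of them changed.

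**Figure D3:**
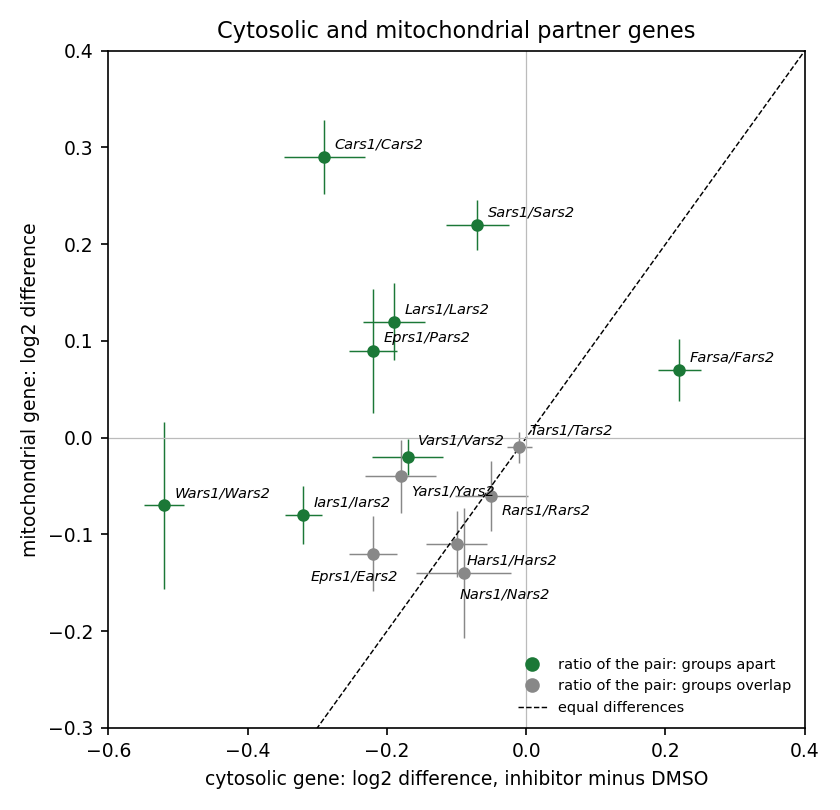
Log2 difference, inhibitor minus DMSO, of the cytosolic gene (x axis) and of the mitochondrial gene for the same amino acid (y axis) in 14 pairs, with error bars of 1 SE from limma. Green points are the 8 pairs whose cytosolic to mitochondrial ratio did not overlap between groups, and all but Farsa and Fars2 lie above the dashed line of equal differences.

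Averaged over each class, the mean log2 level of the 17 cytosolic genes was 9.492, 9.538, 9.458 and 9.495 on the DMSO arrays and 9.313, 9.376 and 9.402 on the inhibitor arrays. All inhibitor arrays lay below all DMSO arrays. The mean of the 16 mitochondrial genes was 7.921, 7.938, 7.934 and 7.958 against 7.925, 7.977 and 7.927, which overlapped. The cytosolic minus the mitochondrial mean was 1.524 to 1.600 in DMSO and 1.388 to 1.476 with the inhibitor.

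SCD inhibitor 1 was the lowest array of its group for 22 of the 33 genes, 12 of them cytosolic, and for 47.6% of all genes. SCD inhibitor 3 was the highest for 13 genes, 9 of them cytosolic, and for 31.5% of all genes. Without SCD inhibitor 1 the median difference of the cytosolic genes was -0.050, and 5 cytosolic genes were still called lower, beside 582 of all 18820 genes. The mean level of the 8 pre-adipocyte markers, given above, was higher on every inhibitor array than on any DMSO array.

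**Figure D4:**
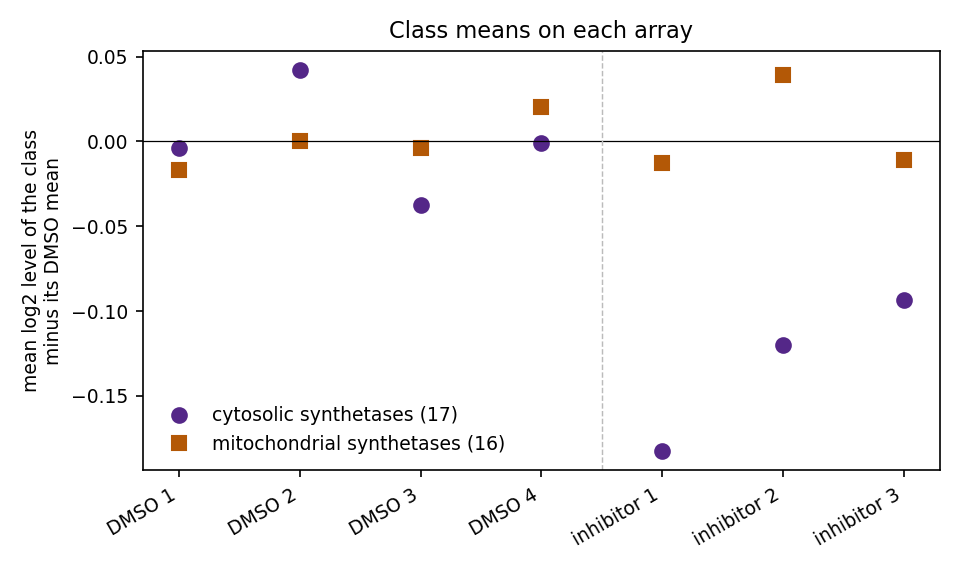
Mean log2 level of the 17 cytosolic (circles) and 16 mitochondrial (squares) synthetase genes on each array, minus the mean of that class over the 4 DMSO arrays (y axis, log2 units). The 3 inhibitor arrays lie below all DMSO arrays for the cytosolic class, whose means were 9.313 to 9.402, and overlap them for the mitochondrial class.

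Cytosolic decreases occurred inside and outside the multi-synthetase complex and in both structural classes, more often in class I than in class II. Of the 6 measured genes of the list that belong to the multi-synthetase complex 3 fell (Iars1, Eprs1 and Lars1). Rars1, Kars1 and Qars1 did not pass, and the median difference of the 6 was -0.120. Mars1, a further member of the complex, is outside the list and not in that median, and its own row did not pass (log2 -0.01). Of the 11 other cytosolic genes 3 fell (Wars1, Cars1 and Gars1) and Farsa rose, with a median of -0.099. By structural class, 4 of 8 cytosolic genes of class I fell (Wars1, Iars1, Cars1 and Lars1; median -0.186), and of 8 of class II 1 fell (Gars1) and 1 rose (Farsa; median -0.070). Eprs1 joins both classes. The differences between these groupings were not tested, and each share of lower genes stands beside 4.37% over all genes.

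Of the 3 auxiliary proteins that hold the complex together, none was called in limma and none had an unadjusted p under 0.05: Eef1e1 had a difference of -0.05 and Aimp1 one of 0.01. Of 12 other measured genes of tRNA charging, editing and recycling 1 fell, beside 4.37% lower over all genes. That gene, Mtfmt, encodes the enzyme that adds the formyl group to the mitochondrial initiator. Mtfmt read 8.69, 8.81, 8.74 and 8.79 in DMSO and 8.58, 8.56 and 8.52 with the inhibitor (log2 -0.20, SE 0.034, adjusted p = 0.0157 in limma), and the median of these 12 genes was -0.045.

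Of 25 cytosolic initiation and elongation factors 2 fell and none rose, beside 4.37% lower over all genes: Eif3d, a subunit of initiation factor 3 (log2 -0.24, SE 0.039, adjusted p = 0.0142 in limma), and Eif2s3x, the gamma subunit of eIF2 (-0.14, SE 0.027). Their median was -0.027. Of 12 mitochondrial translation genes 1 fell, beside the same 4.37%: Mtres1, the mitochondrial transcription rescue factor (-0.39, SE 0.058). The median of these 12 genes was -0.036. Of the 5 genes of the eIF2 alpha kinases and Gcn1 none was called in limma. At an unadjusted p under 0.05, 2 were lower, beside 2076 of all 18820 genes: Eif2ak1, the haem-regulated kinase (-0.15), and Eif2ak2 (-0.08).

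ATF4 and its targets outside the synthetases, a list chosen with its decrease in these data known, had larger differences. Of 23 measured genes 18 fell and 1 rose, beside 4.37% lower and 3.62% higher over all genes. Their median was -0.384, against -0.099 for the cytosolic synthetases. Trib3, a pseudokinase (-1.66), Ppp1r15a, which directs eIF2 dephosphorylation (-0.99), Chac1, which degrades glutathione (-0.79), and Slc7a11, the cystine transporter (-0.64, SE 0.121), had the largest called decreases. The largest decrease of a synthetase, that of Wars1, was -0.52. Outside the naming rule, and chosen after their values were seen, Atf4 itself fell (-0.30, SE 0.040) and Eif4ebp1, an inhibitor of initiation, was the gene that rose (0.30). That both lists moved in these arrays is a description, and a link between them was not tested.

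**Figure D5:**
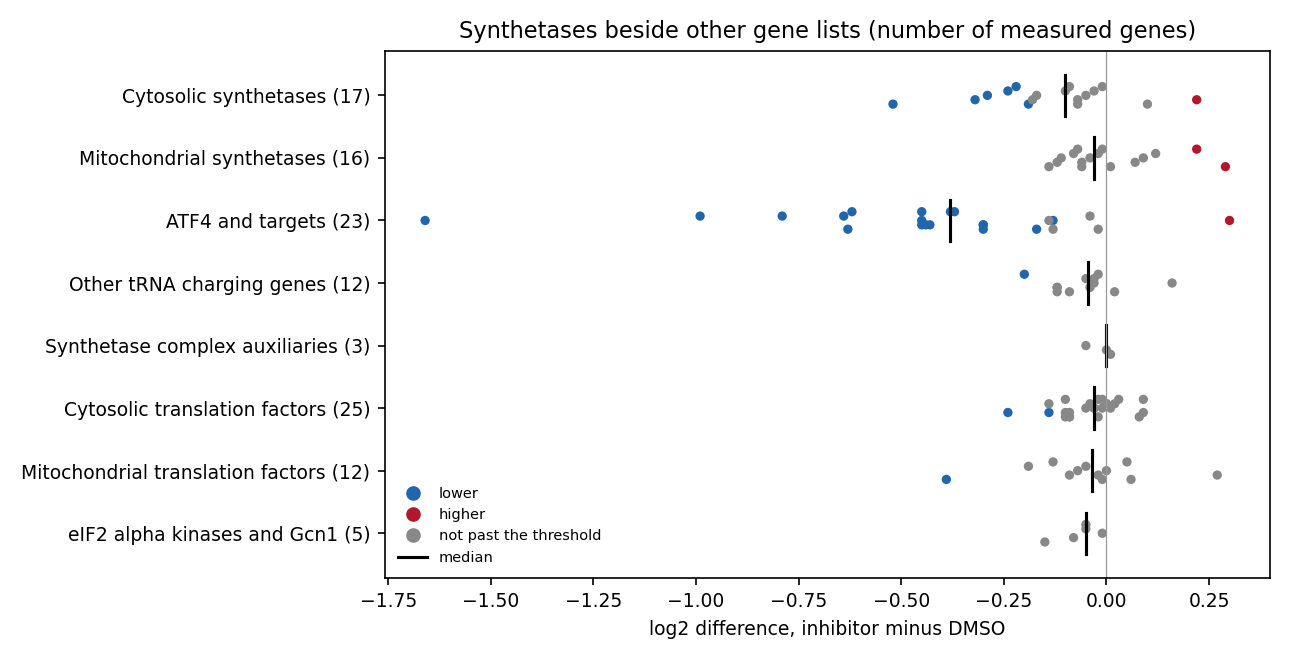
Log2 difference, inhibitor minus DMSO (x axis), of each measured gene of the synthetase classes and of 6 other lists (rows, with the number of genes), coloured by its call; points are spread vertically for legibility. Black bars are medians, which were -0.384 for ATF4 and its targets, -0.099 for the cytosolic and -0.032 for the mitochondrial synthetases.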

How the data were processed

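The authors deposited log2 expression levels. The submitters' processing notes name RMA, a method that corrects background, normalizes between arrays and summarizes probes; its settings are not given. That the scale is log2 was inferred from the range. Per the labels' protocols, 100 ng of total RNA per sample was labelled for Affymetrix arrays, 1 array per sample. Of 28996 rows, 21218 had 1 gene symbol, 1881 several and 5897 were not listed in the annotation. Per gene the row with the highest mean over all arrays was kept, with no filter on dim genes. Tars3 was matched through its RefSeq gene number. RMA compresses changes of dim transcripts.

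All 7 arrays entered 1 linear model across all genes in limma 3.58.1 (lmFit and eBayes, no trend, not robust; R 4.3.3), with Benjamini-Hochberg adjustment. The script was checked on simulated data. All measured synthetases are named; of other lists, up to 4 called genes with the largest difference, or the 2 with the smallest p. Mars1 is named from the same rule. Ratios of gene pairs were compared with two-sided exact permutation tests over the 35 splits of the arrays. Synthetases and lists were chosen with earlier results of these data known. Alternatives were quantile normalization, centring, a block for the replicate number, filters of the dimmest 25% and 50%, trend and robust, array weights, other rows per gene, every row fitted, each array left out, and both arrays numbered 1 left out.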

Additional observations from a re-analysis of the deposited data

Results flagged for a closer look

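In 6 of the 33 genes (18.2%) a DMSO array stood apart from the other 3, with a gap to the nearest array past Dixon's 95% critical value for 4 samples, as a share of the whole range; chance gives about 1 in 20 groups. DMSO 2 was high for Rars1, at 10.406 against a group median of 10.247 (gap 0.890 of the range), and for Sars1, at 10.467 against 10.338 (1.000). DMSO 2 was low for Tars2, at 8.799 against 8.811 (1.000). DMSO 1 was low for Tars1, at 9.244 against 9.250 (1.000), and for Pars2, at 6.018 against 6.243 (1.000), and high for Vars2, at 8.174 against 8.146 (1.000). In Sars1, Tars1, Tars2, Pars2 and Vars2 the other DMSO arrays held the same deposited value, which makes the gap equal to the range. None of the 6 genes was called. The group of 3 inhibitor arrays was not tested in this way.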

How the results depend on the processing

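Of 594 values of the 33 genes under 18 alternatives, 550 kept their direction and their side of the threshold, 24 lost and 6 gained a call, and 14 changed sign, all in genes that did not pass. Of the 9 called genes 4 kept their call in all. Leaving out an array, 3 to 5 cytosolic genes were lower, the cytosolic median ran from -0.139 to -0.050 and 949 to 1294 of all genes were called. The same fits gave differences of -0.03 to 0.04 for Mars2, -0.02 to 0.00 for Tars1, -0.12 to 0.02 for Tars3 and -0.13 to 0.03 for Wars2. Without both arrays numbered 1, 3 cytosolic genes were lower and 0 higher, 1 mitochondrial gene was higher and 808 of all genes were called, and Kars1 (0.01), Tars1 (0.00), Tars3 (0.02), Mars2 (-0.04) and Tars2 (0.00) changed sign. Both fits hold fewer arrays. A further quantile normalization and centring turned Tars1 (0.00 in each) and Tars2 (0.01 in each), centring called 2326 of all genes, and array weights turned Mars2 (-0.01); the cause was not tested.

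With the replicate number as a block, 3 cytosolic genes were lower (Wars1, Iars1 and Eprs1), 0 were higher, and 896 of all genes were called. The calls of Gars1, Farsa, Cars1 and Lars1 were lost there, at adjusted p-values of 0.071, 0.0854, 0.171 and 0.192 in limma. Deviations of arrays with the same number correlated at 0.08 to 0.174, over 0.1 in 2 of 3 pairs, and 5 of the 6 numbered arrays correlated best with their own number, a hint from the data and not the design. The labels give only a shared number, so whether these arrays were paired is not known. Chosen after seeing the data were 2 more alternatives: with Aars1 and Farsb added from their shared rows, in the fit of every row, 5 cytosolic genes were lower and 1 higher, the same counts as in the fit of every row without them, and without the genes of tied values the medians were -0.137 and -0.063. Signal over background is not known from the deposited values.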

Other observations

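Mars1, the methionine enzyme of the cytosol and of the multi-synthetase complex, is not in the list above. Its own row read 9.53, 9.40, 9.37 and 9.38 in DMSO and 9.41, 9.42 and 9.41 with the inhibitor, and it did not pass (log2 -0.01, SE 0.041, adjusted p = 0.925 in limma). A further row carries the symbols of both Mars1 and Ddit3, which encodes the stress factor CHOP. That row read 9.965, 10.006, 9.854 and 9.752 in DMSO and 8.496, 8.395 and 8.506 with the inhibitor (log2 -1.43, SE 0.066, adjusted p = 0.000136 in limma over every row). The 2 rows thus differ by far more than the spread between arrays, and the value of the shared row cannot be assigned to either gene.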
